A study of Arabidopsis thaliana with 6 samples.

Results

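The SWEET genes of Arabidopsis thaliana examined here are SWEET1 (AT1G21460), SWEET2 (AT3G14770), SWEET3 (AT5G53190), SWEET4 (AT3G28007), SWEET13 (AT5G50800) and SWEET14 (AT4G25010). Each was taken by name, as a gene that a probe set lists alone, and these 6 were among 16544 genes so named on the arrays. Each of the 6 had 1 such probe set, and none of them was also named on a probe set shared with other genes. The family has 17 members in the list used here, and a further 10 of them had a probe set of their own and are described after the 6. Transcript levels came from Affymetrix arrays of whole plants of the Columbia accession, with 3 biological replicates of ara6-1 and 3 of the wild type (WT). The line ara6-1 is described in the series as a knock-out mutant of a RAB5 GTPase, ARA6, a plant-specific small protein of endosomal membrane traffic, and is the single mutant line measured. Seeds of both groups were kept at 4 °C for 1 day on MS plates, and the plants then grew under continuous light at 23 °C until day 14, with no other treatment given in the labels. The series title names starch and sugar homeostasis as the subject of the study.

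SWEET proteins are sugar uniporters of the plasma membrane and the vacuolar membrane, which let sugar pass down its concentration gradient without the proton coupling that the SUC and STP transporters use. The family is usually divided into clades I to IV, in this order: SWEET1 to SWEET3 and SWEET4 to SWEET8 mainly carry hexoses, SWEET9 to SWEET15 mainly carry sucrose, and SWEET16 and SWEET17 act at the vacuole. In leaves, sucrose leaves the phloem parenchyma through clade III SWEETs and is then loaded into the phloem by the SUC2 symporter.

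The small number of arrays limited the precision. The arrays had median intensities of 28.8 to 29.2 over 28501 tested probe sets, and the dimmest 5% of probe sets lay at or under 2.9 to 3.2. Levels are probe set intensities, given as deposited or as log2, and the brightness of one probe set was not read as an amount of transcript against that of another. The ARA6 transcript (AT3G54840) had intensities of 126.3, 142 and 118.7 in the ara6-1 arrays and 254.9, 337 and 323.3 in the WT arrays, with no overlap. Signal remained in the mutant, at 0.425 of WT and at percentile 79.1 of all probe sets, against 91.1 in WT. The adjusted p of ARA6 in limma was 0.140, above 0.05. Leaf and root were both represented: RCA, which encodes Rubisco activase, and PYK10, a root and hypocotyl glucosidase gene, lay at the 99.5th and 99.7th percentiles of all probe sets in both groups. Of the markers listed, 3 of 6 for leaf mesophyll and 3 of 7 for root were measured. The root markers EXPA7 and EXPA18 lay lower, at percentiles 60.8 and 70.6 in ara6-1. PYK10 and the leaf marker LHCB4.1 were higher in every mutant array, as 7.81% of all probe sets were, and the other measured markers overlapped. None of the 8 phloem marker genes listed had a probe set under its name, so the phloem was not checked here. In ara6-1, replicate 1 stood apart from the rest, and in WT, replicate 3 did: their log2 values scattered around the group mean with SDs of 0.165 (ara6-1) and 0.169 (WT) over the 14250 brighter probe sets, against 0.121 to 0.126 for the other arrays. In whole plants, a change in the number of cells of a type and a change of RNA per cell cannot be told apart.

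SWEET4 and SWEET13 were the SWEET transcripts with higher levels in every ara6-1 array than in any WT array. SWEET4, a hexose transporter gene of vascular tissue, had intensities of 49.1, 61 and 64.3 in ara6-1 replicates 1 to 3, against 28.5, 39.6 and 29 in WT replicates 1 to 3. The lowest mutant value was thus above the highest WT value, with WT replicate 2 the nearest to the mutant range. SWEET13, a clade III gene for a sucrose transporter that can also carry gibberellin, had intensities of 41.9, 42.6 and 36.3 in ara6-1, against 26.3, 26.7 and 27.7 in WT. The 3 WT values of SWEET13 lay close together (SD 0.04 on the log2 scale, n = 3) and the mutant values were more spread (SD 0.13, n = 3).

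On the log2 scale SWEET4 averaged 5.85 ± 0.21 in ara6-1 and 5.0 ± 0.27 in WT (SD, n = 3 each), which is 1.81-fold higher in the mutant with a 95% interval of 1.38 to 2.37. SWEET13 averaged 5.33 ± 0.13 in ara6-1 and 4.75 ± 0.04 in WT (SD, n = 3 each), which is 1.49-fold higher with a 95% interval of 1.26 to 1.77. Neither passed the threshold of 0.05 after Benjamini-Hochberg adjustment over all 28501 probe sets (adjusted p in limma = 0.457 for SWEET4 and 0.447 for SWEET13). Their unadjusted p in limma was 0.00125 for SWEET4 and 6.81e-04 for SWEET13. By this p SWEET13 ranked 39 and SWEET4 ranked 78 among all probe sets, of which 3 (0.0105%) passed the adjusted threshold. In the size of its log2 difference, SWEET4 lay at the 99.7th percentile of all probe sets and SWEET13 at the 98.5th.

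Both differences kept their sign without any single array. The log2 fold change of SWEET4 lay between 0.77, without WT replicate 1, and 1.01, without WT replicate 2. That of SWEET13 lay between 0.54, without ara6-1 replicate 2, and 0.65, without ara6-1 replicate 3. With the 2 arrays that stood apart left out, the log2 fold changes were 0.90 for SWEET4 and 0.57 for SWEET13. The adjusted p stayed above 0.05 in each of these fits (limma, 0.349 with both arrays left out, for each gene).

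**Figure D1:**
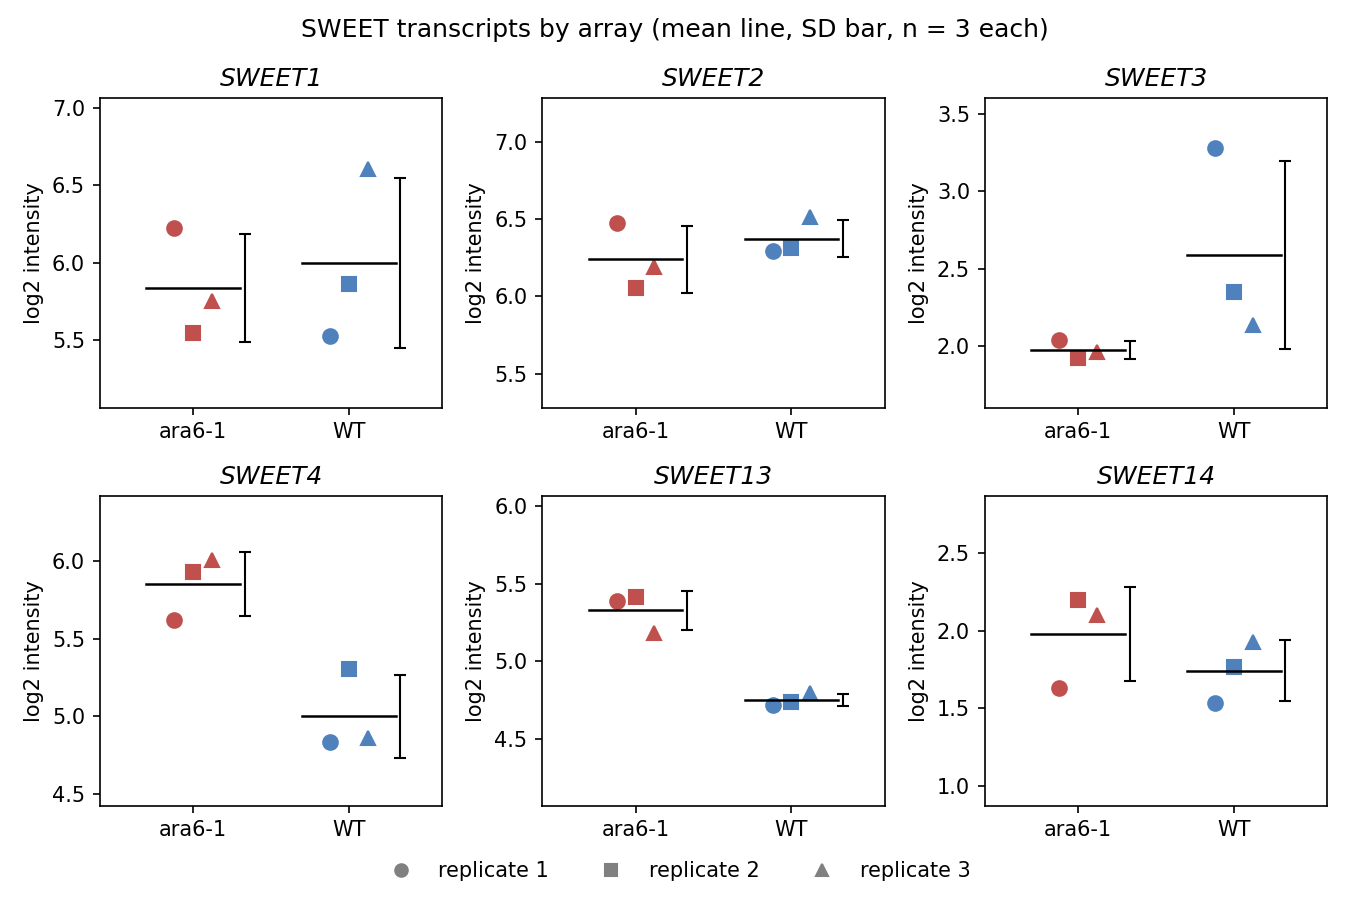
Log2 probe set intensity (vertical axes, all spanning the same range of 2 log2 units) of the 6 SWEET genes in the 3 ara6-1 arrays (red, left) and the 3 WT arrays (blue, right), with symbols for the replicate number, a line at the group mean and a bar of 1 SD to its right. SWEET4 and SWEET13 have all mutant points above all WT points, SWEET3 has all mutant points below them, and the other 3 genes overlap.

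SWEET14, the closest relative of SWEET13 in clade III and like it known from sucrose and gibberellin transport, was dim in ara6-1 and in WT alike. Its intensities were 3.1, 4.6 and 4.3 in ara6-1 and 2.9, 3.4 and 3.8 in WT. The mutant array that stood apart, replicate 1, fell within the WT range and the other 2 mutant arrays were above it. SWEET14 averaged 1.98 ± 0.31 in ara6-1 and 1.74 ± 0.20 in WT on the log2 scale (SD, n = 3 each), at percentiles 11.4 and 6.2 of all probe sets. The log2 fold change was 0.24 with a 95% interval of -0.18 to 0.65 (adjusted p = 0.697 in limma). With both arrays that stood apart left out it was 0.50, with the groups separated (adjusted p = 0.349 in limma). It was 0.41 without ara6-1 replicate 1, 0.13 without ara6-1 replicate 2 and 0.13 without WT replicate 1, and adding 16 to every intensity before log2 lowered it to 0.05. With no detection call in the table, the size of the difference is not determined.

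SWEET3, a clade I gene, had the reverse arrangement at a similar low level. Its intensities were 4.1, 3.8 and 3.9 in ara6-1, against 9.7, 5.1 and 4.4 in WT. The mutant values lay within a narrow range below all WT values, while WT replicate 1 stood well above the other WT arrays. SWEET3 averaged 1.98 ± 0.06 in ara6-1 and 2.59 ± 0.61 in WT on the log2 scale (SD, n = 3 each). The log2 fold change was -0.61 with a 95% interval of -1.26 to 0.03 (adjusted p = 0.567 in limma). Without WT replicate 1 it was -0.27 (adjusted p = 0.727 in limma), so the size of the difference rested on that array. With both arrays that stood apart left out it was -0.87. WT replicate 1 was not one of the 2 arrays that stood apart over all probe sets.

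SWEET1, a glucose transporter gene of the plasma membrane, and SWEET2, a glucose transporter gene of the vacuolar membrane known from roots, overlapped between the groups. SWEET1 had intensities of 74.6, 46.6 and 53.8 in ara6-1 and 46, 58.2 and 97.1 in WT. SWEET2 had intensities of 89, 66.3 and 72.9 in ara6-1 and 78.4, 79.5 and 91.2 in WT. In both genes the highest array of each group was the one that stood apart over all probe sets, ara6-1 replicate 1 and WT replicate 3. The part of those 2 arrays' deviation in these levels was not tested.

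SWEET1 averaged 5.84 ± 0.35 in ara6-1 and 6.0 ± 0.55 in WT on the log2 scale (SD, n = 3 each). Its log2 fold change was -0.16 with a 95% interval of -0.84 to 0.52 (adjusted p = 0.880 in limma), and it turned to 0.14 without WT replicate 3. With both arrays that stood apart left out it was -0.05. As a fold of WT the interval ran from 0.558 to 1.44, so the arrays left the direction of SWEET1 undetermined. SWEET2 averaged 6.24 ± 0.22 in ara6-1 and 6.37 ± 0.12 in WT (SD, n = 3 each), with a log2 fold change of -0.13 and a 95% interval of -0.45 to 0.19 (adjusted p = 0.775 in limma). Without ara6-1 replicate 1, the mutant values of SWEET2 lay below all WT values, as the groups were then separated in 31.8% of all probe sets, and the log2 fold change was -0.25 (adjusted p = 0.477 in limma). Without ara6-1 replicate 2 it was -0.04, and with both arrays that stood apart left out -0.18.

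**Figure D2:**
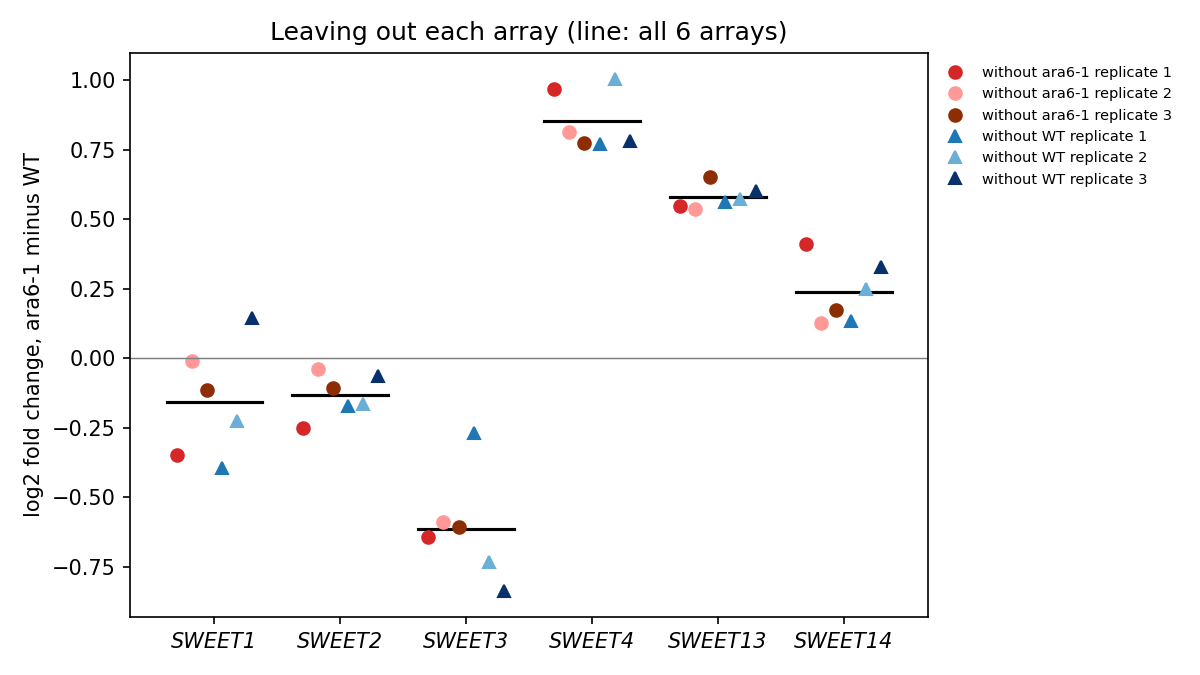
Log2 fold change of the 6 SWEET genes, ara6-1 minus WT (vertical axis), with all 6 arrays (black line) and without each array in turn (circles for a mutant array left out, triangles for a WT array). SWEET13 stays between 0.54 and 0.65 and SWEET4 between 0.77 and 1.01, SWEET3 moves to -0.27 without WT replicate 1, and SWEET1 crosses 0 without WT replicate 3.

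Of the 6 genes, 0 passed the adjusted threshold in limma, and 2 had an unadjusted p under 0.05, which 9.01% of all probe sets had. The groups did not overlap in 3 of the 6 (SWEET3, SWEET4 and SWEET13), against 15.7% of all probe sets. The 6 were chosen with earlier results of these data known, so this contrast is not a test. SWEET3 was dim, at percentiles 11.3 in ara6-1 and 20.2 in WT. Its highest mutant intensity was 4.1 and its lowest WT intensity 4.4. SWEET4 and SWEET13 were on the higher side, as 7.81% of all probe sets were, and SWEET3 on the lower side, as 7.85% were. With both arrays that stood apart left out the groups did not overlap in 5 of the 6, against 46.4% of all probe sets. The 6 genes had a median log2 fold change of 0.05, where the median over all probe sets was -0.0018. Over the 16 SWEET genes with a probe set, the count of non-overlapping genes was the same 3, or 18.8%, near the share of all probe sets.

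Whether changes within the family were unequal was examined through the log2 difference of 2 genes within each array, over 15 pairs. The level of SWEET2 relative to SWEET4 was lower in every mutant array than in any WT array, averaging 0.39 ± 0.41 in ara6-1 and 1.37 ± 0.33 in WT (SD, n = 3 each). SWEET2 relative to SWEET13 averaged 0.91 ± 0.24 in ara6-1 and 1.62 ± 0.08 in WT (SD, n = 3 each). SWEET3 relative to SWEET4, SWEET3 relative to SWEET13 and SWEET4 relative to SWEET14 also did not overlap between the groups, which makes 5 pairs in all. All of these pairs hold SWEET4 or SWEET13, whose own groups did not overlap, so the pairs are not separate results. The share of all pairs of probe sets that separate in this way was not counted. Each of the 5 had the smallest two-sided p that 3 arrays against 3 allow in an exact permutation test, 0.1, and an adjusted p of 0.3 over the 15 pairs, so no pair passed.

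The changes of SWEET4 and SWEET13 themselves differed by 0.27 on the log2 scale with overlapping groups (exact permutation p = 0.3, adjusted p = 0.409 over the 15 pairs). SWEET13 and SWEET14 differed by 0.34, again with overlapping groups (exact permutation p = 0.2, adjusted p = 0.333 over the 15 pairs). Since SWEET14 was dim in both groups and 3 arrays against 3 cannot give a p under 0.1, this comparison does not tell whether the changes of these 2 genes differ.

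Among the other 10 SWEET genes, 0 passed the adjusted threshold in limma, against 0.0105% of all probe sets. An unadjusted p under 0.05 was found in 0 of them, against 9.01% of all probe sets. The groups overlapped in all 10, where 15.7% of all probe sets did not overlap. In so few genes, counts of 0 do not set the 10 apart from these shares. The log2 fold changes of the 10 genes ran from -0.30 for SWEET6 to 0.21 for SWEET16, with 3 positive, 7 negative and a median of -0.09. SWEET6 (AT1G66770), SWEET9 (AT2G39060), the nectary sucrose exporter gene, and SWEET15 (AT5G13170), a gene of senescing leaves and seed coats also called SAG29, had the smallest unadjusted p among them. SWEET6 had intensities of 2.8, 3.6 and 2.7 in ara6-1 and 4.3, 3.5 and 3.4 in WT, close to the dimmest 5% of probe sets. SWEET9 had intensities of 4.4, 4 and 4.1 in ara6-1 and 4.8, 6.8 and 4.1 in WT, with a log2 fold change of -0.30 (adjusted p = 0.648 in limma). SWEET15 had intensities of 24.8, 23.3 and 14 in ara6-1 and 23.6, 25.6 and 23.8 in WT, with a log2 fold change of -0.28 (adjusted p = 0.708 in limma). In SWEET15 a single mutant array, replicate 3, lay below the rest.

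SWEET11 (AT3G48740), the clade III gene best known for phloem loading together with SWEET12, was bright in both groups, at percentile 98.7 in ara6-1 and 98.6 in WT among all probe sets. Its intensities were 1497, 1375.6 and 1361.2 in ara6-1 and 1201.7, 1329.9 and 1474.3 in WT. The mutant values all lay above the WT mean on the log2 scale, but WT replicate 3 was within their range. The log2 fold change was 0.08 with a 95% interval of -0.18 to 0.34 (adjusted p = 0.827 in limma), an interval whose ends are 0.884-fold and 1.27-fold. SWEET12 (AT5G23660) had no probe set under its name and was not analysed here.

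The vacuolar pair of clade IV gave intensities of 136.4, 123.7 and 97.9 in ara6-1 and 92.7, 84.4 and 135.6 in WT for SWEET16 (AT3G16690). Its log2 fold change was 0.21 with a 95% interval of -0.27 to 0.70 (adjusted p = 0.763 in limma). SWEET17 (AT4G15920), a fructose transporter gene, had intensities of 49.1, 70.3 and 65 in ara6-1 and 64.4, 64.4 and 64.8 in WT, with a log2 fold change of -0.09 (adjusted p = 0.865 in limma). Both overlapped, and in SWEET17 the low array was ara6-1 replicate 1, which stood apart.

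SWEET10 (AT5G50790), a clade III gene linked to the floral transition, is the direct neighbour of SWEET13 in the TAIR10.1 annotation, with 0 annotated genes between them. Its intensities were 9.9, 6.8 and 6.9 in ara6-1 and 8.6, 9.2 and 7 in WT. The groups overlapped, with a log2 fold change of -0.085 and a 95% interval of -0.51 to 0.34 (adjusted p = 0.898 in limma). The remaining genes, the pollen and anther genes SWEET5 (AT5G62850) and SWEET8 (AT5G40260) and the hexose transporter gene SWEET7 (AT4G10850), had intensities of 2.7 to 8.2 over all arrays and log2 fold changes of 0.08, -0.09 and -0.02. Whether those dim genes were expressed was not determined, since the table holds no detection call.

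**Figure D3:**
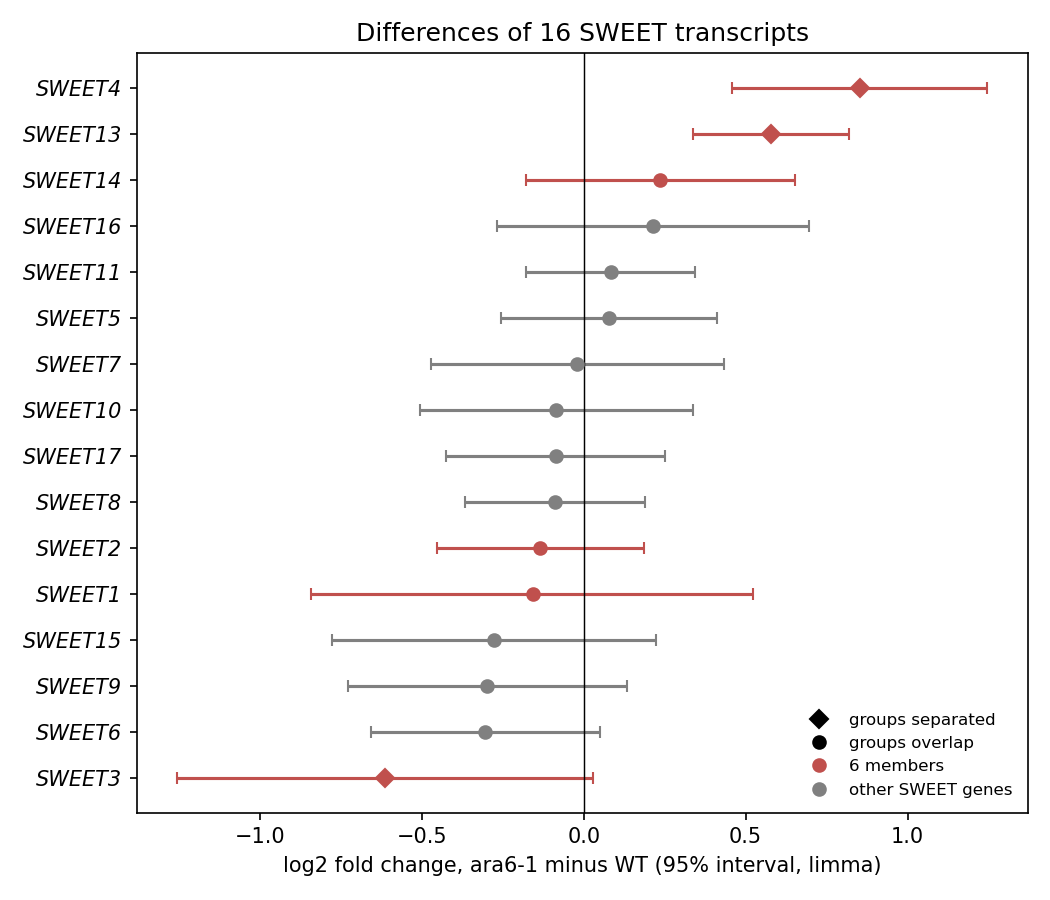
Log2 fold change, ara6-1 minus WT, with its 95% interval from limma (horizontal axis) for 16 SWEET genes ordered by their difference, with the 6 genes of the opening in red and the others in grey, and diamonds where the groups did not overlap. The intervals of SWEET4 (0.46 to 1.25) and SWEET13 (0.34 to 0.82) lie above 0 and those of the other 14 include it, before any adjustment for the number of tests.

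**Figure D4:**
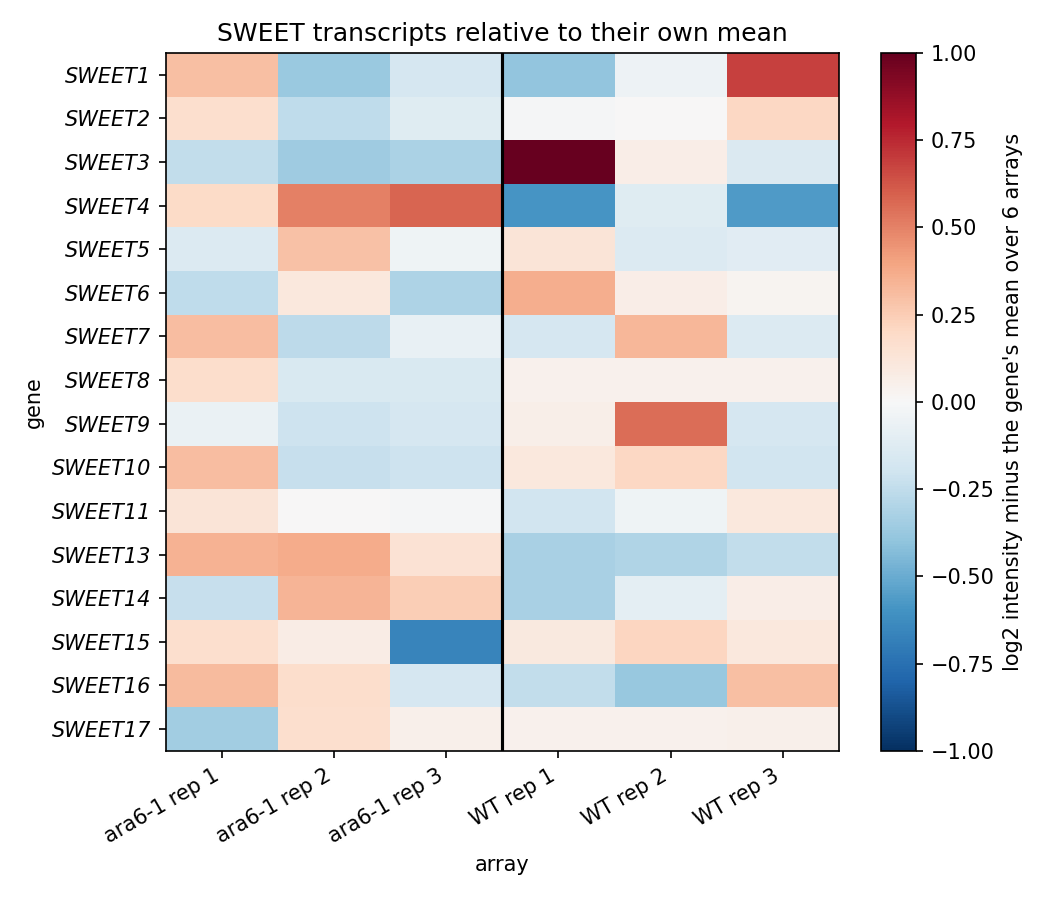
Log2 intensity of 16 SWEET genes (rows) in the 6 arrays (columns, ara6-1 left of the line and WT right of it) minus each gene's own mean over the arrays, in colour from 1 below to 1 above. SWEET4 and SWEET13 are above their means in the 3 mutant arrays and below them in the 3 WT arrays, SWEET1 is highest in WT replicate 3, and SWEET3 is highest in WT replicate 1.

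Other transporter genes, for sugars, for polyols and inositol and of the plastid, were read from the same fit, as were genes of enzymes that split sucrose. Of 49 listed transporter genes 12 had a probe set under their name, and of these 0 passed the adjusted threshold in limma, 7 had positive and 5 negative log2 fold changes, and their median was 0.03. Over the same 12, the groups did not overlap in 2 genes (16.7%), against 15.7% of all probe sets. None of the 9 SUC sucrose symporter genes, SUC2 of phloem loading among them, had a probe set under its name. Among the hexose symporter genes, 4 of 14 were measured.

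The transporter gene with the smallest unadjusted p was STP8 (AT5G26250), of the family that carries hexoses into cells with protons. Its intensities were 6.6, 5.6 and 6.2 in ara6-1, against 8.8, 8.5 and 9 in WT. All mutant values were below the WT values, at a log2 fold change of -0.52 with a 95% interval of -0.76 to -0.28 (adjusted p = 0.455 in limma). Its unadjusted p in limma was 0.00121, at rank 76 among all probe sets. STP8 was dim in both groups, at percentiles 21.6 in ara6-1 and 27.9 in WT, and whether it was expressed was not determined. STP5 and STP3 had log2 fold changes of -0.11 and 0.06 (adjusted p = 0.799 and 0.868 in limma).

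Of the listed vacuolar and ERD6-like sugar transporter genes, 6 of 10 were measured. TMT2 (AT4G35300), a main importer of sugar into the vacuole, had intensities of 105, 123 and 122.4 in ara6-1, against 104.5, 91.6 and 101.9 in WT. The groups were separated by a small gap, with a log2 fold change of 0.23 and a 95% interval of -0.03 to 0.49 (adjusted p = 0.580 in limma). SFP2 and TMT3 had log2 fold changes of -0.19 and -0.20 (adjusted p = 0.648 and 0.802 in limma). The polyol and inositol transporter list had 1 of 10 genes measured, PLT3 (AT2G18480) with 0.09, and the plastid list 1 of 6, the XPT gene (AT5G17630) with 0.14.

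Of the sucrose cleavage genes, 2 of 14 were measured and both overlapped between the groups. CWINV6 (AT5G11920), listed with the cell wall invertases, had intensities of 39, 30 and 24.2 in ara6-1 and 22.7, 27 and 20.5 in WT, with a log2 fold change of 0.39 (adjusted p = 0.586 in limma). BFRUCT3 (AT1G62660), a vacuolar invertase gene, had a log2 fold change of 0.15 (adjusted p = 0.795 in limma).

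Genes with the most similar course over the arrays were taken from 16404 other named genes, by the root mean square difference between log2 values centred on each gene's own mean over the 6 arrays. The closest to SWEET4 were AT5G37410 (a difference of 0.07), AT1G33440 (0.129) and scpl20 (AT4G12910, 0.158), a serine carboxypeptidase-like gene. AT5G37410 was dim, with intensities of 5.5, 7.5 and 7.2 in ara6-1 and 3.3, 4.8 and 3.7 in WT. AT1G33440 had intensities of 68.3, 89.5 and 92.4 in ara6-1 and 48.4, 69.2 and 48.2 in WT, so that, as in SWEET4, ara6-1 replicate 1 was the lowest mutant array and WT replicate 2 the highest WT array. Its groups overlapped by a small margin, unlike those of SWEET4. The closest to SWEET13 were AT3G56260 (0.056), AT4G11190 (0.077) and AT5G48320 (0.084). AT3G56260 had intensities of 33.8, 34.1 and 30.1 in ara6-1 and 22.5, 22.5 and 24.9 in WT, with a log2 fold change of 0.49 (adjusted p = 0.485 in limma).

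SWEET4 and SWEET13 differed from each other by 0.272 on this measure. SWEET13 held place 93 among the genes ordered by likeness to SWEET4, and SWEET4 held place 3099 among those ordered by likeness to SWEET13. A gene with no change over the arrays would differ from SWEET4 by 0.469 and from SWEET13 by 0.299. SWEET11, whose groups overlapped, was closer to SWEET13 than SWEET4 was, at 0.263. The closest genes to SWEET3 were AT5G60060 (0.121), AT3G03930 (0.124) and AT2G12880 (0.126). In each of these 3, WT replicate 1 was the highest array, as in SWEET3: AT3G03930 had intensities of 4.9, 4.3 and 5.1 in ara6-1 and 10.8, 7.3 and 5.4 in WT. With 6 arrays and this many genes, close courses arise for many genes, and none of these likenesses was tested.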

How the data were processed

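Total RNA of 6 samples was labelled with biotin and hybridized to Affymetrix arrays, 1 per sample, per the labels' protocols. The authors deposited linear intensity values; the submitters' processing notes name Affymetrix Expression Console 1.3, and how probes were summarized, the genome build and the annotation are not given in the sources used here. Quantiles were similar between arrays, and the values were taken as already normalized. Of 38408 rows, the 28501 written to at most 1 decimal were tested; the other 9907, of unstated kind, were left out. The platform's probe table, updated through RefSeq (TAIR10.1), gave 1 gene for 16704 probe sets, several for 744 and none for 11053. A gene's brightest probe set stood for it.

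Intensities were turned into log2 (floor 1, which touched no value) and ara6-1 was compared with WT by lmFit and eBayes of limma 3.58.1 (R 4.3.3). Two-sided p-values were adjusted by Benjamini-Hochberg over 28501 probe sets, with a threshold of 0.05. SEs and 95% intervals come from this fit. In simulated arrays that kept each probe set's mean and SD, with independent normal noise, 200 probe sets above the median intensity were changed. Among 28501 tested, the fit recovered 32% of 1.5-fold and 76% of 2-fold changes, of 50 each. It recovered 98% of 4-fold and 98% of 8-fold changes, also of 50 each, with 5 false calls. No dimmer probe set was changed and no array was made to stand apart, so recovery for dim genes was not measured. Fewer real changes make the adjustment stricter. Members and gene lists were chosen with earlier results of these data known. Named were the 6 members, up to 3 genes with the smallest unadjusted p per list, and the 3 genes closest in course to SWEET3, SWEET4 and SWEET13; other SWEET genes were named after their values were seen. P-values measure the spread between arrays; the labels say biological replicates, and do not say how the plants were kept separate. The labels state no pairing by replicate number, and none was used in the main fit. Same-numbered deviations correlated at -0.196, 0.174 and -0.150 across probe sets. Other combinations ran from -0.244 to 0.289, the highest between ara6-1 replicate 1 and WT replicate 3, the arrays that stood apart. Deviations from a mean of 3 arrays constrain each other, so these values cannot decide whether samples were paired. Alternatives are given in the closing section. A planned promoter motif search and sequences were not run here.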

Additional observations from a re-analysis of the deposited data

How the results depend on the processing

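Under 16 alternatives, the number of the 6 SWEET genes past the adjusted threshold in limma stayed at 0. So did that of the other listed transporter and sucrose cleavage genes. SWEET2, SWEET3, SWEET4, SWEET13 and SWEET14 kept their direction in every alternative that tested them; SWEET3 and SWEET14 were not tested when dim probe sets (mean log2 under 2.88) were left out. The lowest adjusted p in limma was 0.153 for SWEET4, with a prior variance that follows intensity, and 0.182 for SWEET13, with 16 added before log2. Their highest was 0.804. Leaving out each array in turn gave log2 fold changes of -0.39 to 0.14 for SWEET1, which reversed to 0.144 without WT replicate 3, and of -0.25 to -0.04 for SWEET2, -0.84 to -0.27 for SWEET3 and 0.13 to 0.41 for SWEET14. The cause was not tested. With 16 added before log2, the log2 fold change of SWEET3 was -0.16. All probe sets past the threshold numbered 3 in the chosen fit, 16 with a prior variance that follows intensity, 0 without moderation (where SWEET13 had an unadjusted p of 0.00165 and SWEET4 of 0.0119), 1 without the 2 arrays that stood apart and 2 to 4 without each array. The 3 SWEET genes with separated groups became 3 to 5 without each array, 5 without both arrays that stood apart, and 2 with dim probe sets left out. Fewer arrays separate more easily: 31.8% of all probe sets were separated without ara6-1 replicate 1 and 46.4% without both. The 5 separated pairs, of 15, became 5 to 10 without each array and 12 without both. They became 2 among the pairs of the 4 genes left with dim probe sets removed. The share of all pairs of probe sets that separate was not counted in any of these settings. With the replicate block the adjusted p was 0.623 for SWEET4, SWEET13 and SWEET3 (limma), and 2 of all probe sets passed. The labels state no pairing by replicate number. Taking the mean of several probe sets per gene was not run, since each gene had 1. Array number and low signal limit what SWEET3 and SWEET14 can show.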
